A study of Mus musculus with 12 samples.

Results

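Mitosis depends on a set of genes that are switched on together late in the cell cycle and are nearly silent in resting cells. Cyclin-dependent kinase 1 with its cyclins drives entry, Polo and Aurora kinases build the spindle, and kinesins move chromosomes along microtubules that the kinetochore holds, while the spindle checkpoint delays separation until every chromosome is attached. In the adult liver most hepatocytes are resting, and these genes are known to appear when hepatocytes divide after injury or loss of tissue, and in dividing immune and stromal cells.

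The genes described here are 56 mitotic genes chosen by symbol: cyclins, kinases, kinesins, centromere, kinetochore, checkpoint and cytokinesis proteins, condensin subunits and 2 transcription factors. The choice was made with earlier results of these data known. A gene counted as measured when the array annotation paired a probe set with that symbol alone, and among several the brightest over the 12 arrays was taken. This gave 55 measured genes, of 19938 genes in all. Ccnb1, which encodes cyclin B1, was not analysed here.

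The arrays measured whole-liver RNA of 12 C57Bl/6J mice, 1 array per mouse. Recombinant adenovirus was injected into a vein at 10 weeks of age, carrying a hairpin that targets Grb14 in 6 mice (sh Grb14) and a scrambled hairpin in 6 mice (sh scramble). Livers were studied 7 days later, in fed animals. Grb14 is an adapter protein that restrains the insulin receptor, and the comparison asks what its reduction does to liver expression. All 12 mice therefore carried adenovirus, and livers without virus were not analysed here. The sex of the mice, the promoter of the hairpin and the cells that took up the virus are not given in the sources used here. Values are log2 levels, with array medians between 7.06 and 7.17 and lower quartiles between 5.69 and 5.83.

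The targeted gene was lower in every sh Grb14 liver. Grb14 had a lowest, median and highest log2 level of 8.02, 8.23 and 8.44 in sh Grb14 livers, against 10.08, 10.14 and 10.25 in sh scramble livers. The difference was −1.91 (SE 0.059), so that sh Grb14 livers had 26.7% of the level in sh scramble livers (limma, Benjamini-Hochberg adjusted p = 7.99e-14; two-sided exact permutation p = 0.00216, the smallest that 6 against 6 mice can give). Hepatocyte markers were high on all arrays. The mean log2 level of the 11 markers measured was 12.70 to 12.91 in sh Grb14 livers and 13.21 to 13.26 in sh scramble livers. Of the 11, 10 were called lower in sh Grb14 livers, where 39.5% of all genes were called lower.

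Nearly the whole mitotic set was higher in sh Grb14 livers. Among the 55 measured, 53 were called higher and 1 lower, while 1 missed the threshold (limma, Benjamini-Hochberg adjusted p under 0.05 over all genes). Over all 19938 genes 65.3% were called, 25.8% higher and 39.5% lower. The members' count of rises stands far above that share of rises. Because the members were chosen with earlier results of these data known, this contrast is a description and not a test. The groups did not overlap for 52 of the 53 genes that rose and for the gene that fell, where 20.3% of all genes were without overlap in the upward direction and 20.8% in the downward one. Rises of at least 2-fold were seen in 47 members, against 6.37% of all genes, and rises of at least 4-fold in 24 members, against 1.58%. The median change of the members was 1.89 on the log2 scale, and that of all genes was −0.10. Member changes lay between −0.32 for Pttg1 and 3.08 for Bub1. The plot of changes by role shows this spread.

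**Figure D1:**
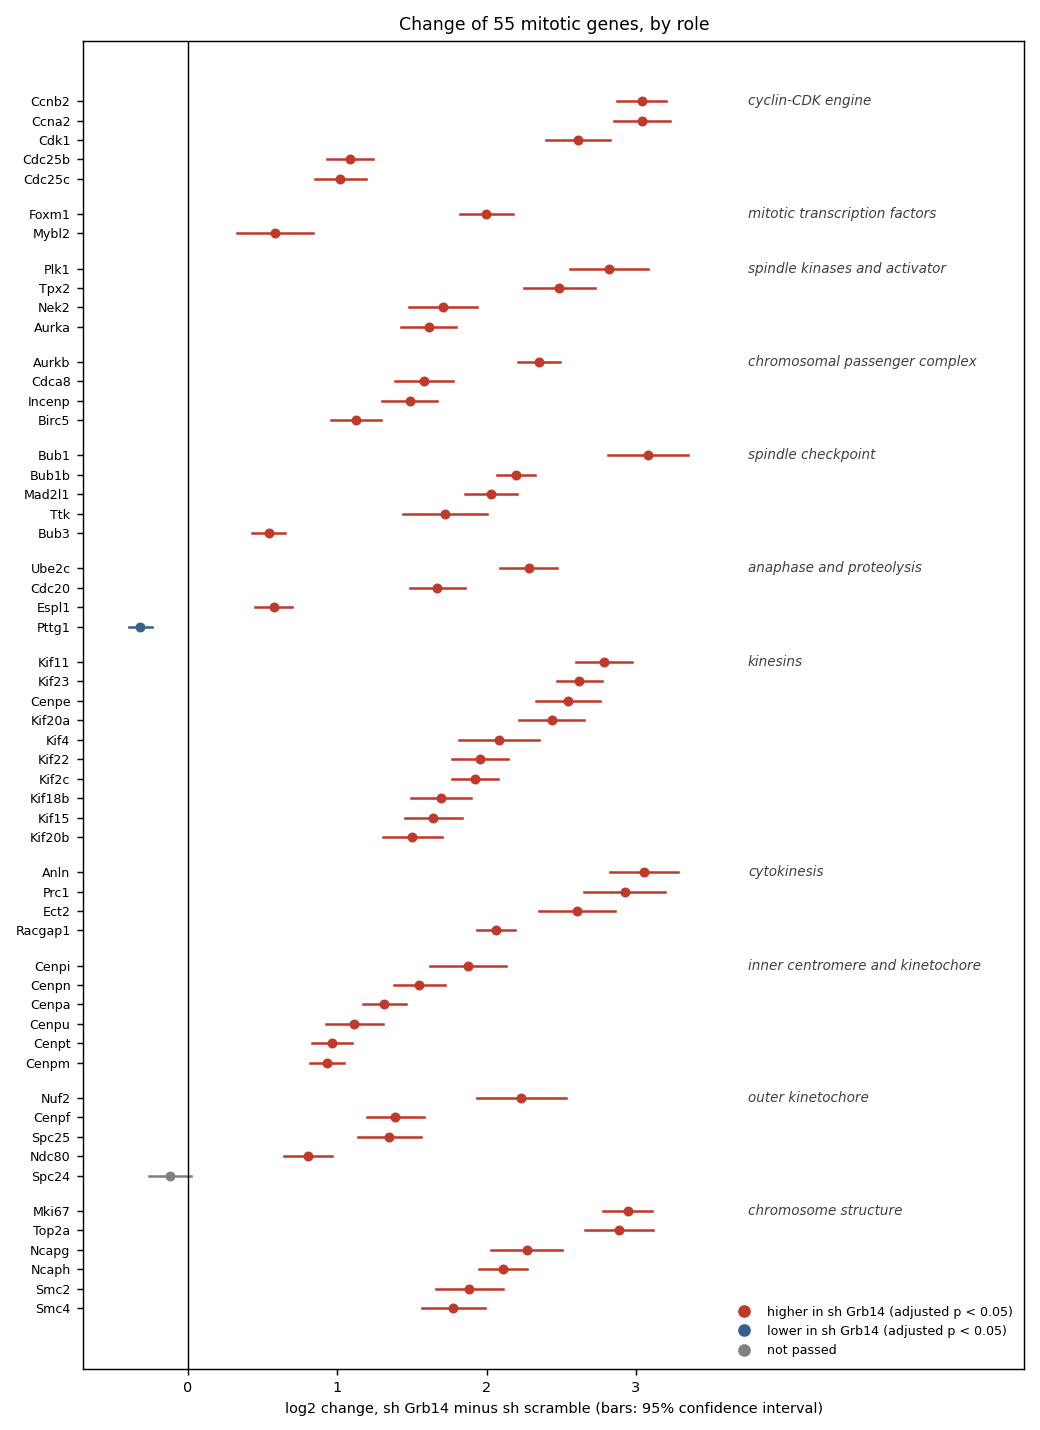
Log2 change (sh Grb14 minus sh scramble) of the 55 measured mitotic genes, grouped by role. Points are fitted changes and bars 95% confidence intervals from limma, red for genes that rose, blue for the gene that fell and grey for the gene that did not pass. All points lie right of 0 except Pttg1 at −0.32 and Spc24 at −0.12.

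In a whole organ, a change in the number of cells of a type and a change in RNA per cell cannot be told apart. Markers of other cell types that can divide in the liver were read in the same livers. Over all genes 25.8% were called higher and 39.5% lower, and counts near these shares are not read as a change of a list. All 9 measured markers of monocytes and macrophages rose, with a mean log2 level of 10.12 to 10.40 in sh Grb14 livers and 8.55 to 8.92 in sh scramble livers. This list does not separate recruited from resident macrophages. Of the T cell markers 8 of 9 rose and 1 fell, with a mean level of 8.42 to 8.75 in sh Grb14 livers and 7.21 to 7.33 in sh scramble livers. For natural killer and cytotoxic cells 7 of 8 rose, with a mean level of 8.12 to 8.40 in sh Grb14 livers and 6.38 to 6.49 in sh scramble livers. The ranges of these 3 immune lists did not overlap between the groups. Stellate cell and fibroblast markers had 6 of 8 higher and 1 lower, with a mean level of 9.99 to 10.36 in sh Grb14 livers and 9.09 to 9.51 in sh scramble livers, and neutrophil markers had 6 of 8 higher, with a mean level of 7.08 to 7.47 in sh Grb14 livers and 6.15 to 6.34 in sh scramble livers. These ranges did not overlap either. B and plasma cell markers had 5 of 7 higher, with a mean level of 7.35 to 7.56 in sh Grb14 livers and 7.10 to 7.35 in sh scramble livers. Kupffer cell markers, with 2 of 7 higher and 1 lower, had a mean level of 9.24 to 9.39 in sh Grb14 livers and 9.09 to 9.41 in sh scramble livers. Endothelial markers, with 3 of 7 higher and 3 lower, had a mean level of 9.47 to 9.62 in sh Grb14 livers and 9.45 to 9.60 in sh scramble livers. The ranges of these 3 lists touched or overlapped. Erythroid markers, with 2 of 5 higher and 2 lower, had a mean level of 8.16 to 8.47 in sh Grb14 livers and 8.40 to 8.47 in sh scramble livers, and cholangiocyte markers, with 1 of 5 higher, had 7.17 to 7.38 in sh Grb14 livers and 7.02 to 7.19 in sh scramble livers. These ranges overlapped too. The arrays have no true zero and no detection call, so no marker can be called absent. The part of these cell types in the mitotic signal was not tested.

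The promoters of the mitotic genes are shown next, because genes that move together in mitosis are known to share 2 short elements. One is the cell cycle genes homology region (CHR), which is bound by the MuvB core of the repressive DREAM complex and of the activating complexes with B-Myb and FoxM1. The other is the CCAAT box, which is bound by NF-Y. RefSeq promoter windows of build GRCm38.p6, from 250 bases before to 50 bases after a gene's start, were found for 46 of the 55 measured members, as 49 promoters. Those of Ccna2, Cdc25c, Foxm1, Tpx2, Aurkb, Incenp, Kif20a, Spc24 and Smc4 were not analysed here. TTTGAA and TTCGAA were searched as forms of the CHR, and CCAAT for the NF-Y box, on both strands. TTTGAA was found in 71.4% of the members' promoters, against 17.9% of the 32851 promoters in the table. TTCGAA was found in 10.2%, against 1.56%, and either form in 77.6%, against 19.2%. CCAAT was found in 75.5%, against 37.4%, and a promoter with CCAAT as well as a CHR form was seen in 67.3%, against 7.52%. Of the 52 CHR matches in members' promoters, 36 began no more than 50 bases before the start or within the 50 bases after it. In 1 case a CHR match overlapped a CCAAT match. Matches were counted per window, so a site in 2 windows of the same gene, as for Ect2, counts in each. Promoters of DNA replication genes, 39 in number, held either CHR form in 17.9% and CCAAT in 61.5%. These matches are descriptions of letters and not evidence of binding.

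The 150 bases before the start are given for 6 members that rose and have CHR matches before the start, and for Pttg1, the only member that fell. Each is written 5′ to 3′ on the gene's strand, and capitals mark either CHR form and CCAAT, read on that strand or on the other one. The regions are chr10:69352913-69353062, minus strand for Cdk1, chr2:164769779-164769928, plus strand for Ube2c, chr4:118437344-118437493, minus strand for Cdc20, chr19:37376232-37376381, plus strand for Kif11, chr11:99024190-99024339, minus strand for Top2a, chr7:135716380-135716529, minus strand for Mki67 and chr11:43425982-43426131, minus strand for Pttg1.
Cdk1: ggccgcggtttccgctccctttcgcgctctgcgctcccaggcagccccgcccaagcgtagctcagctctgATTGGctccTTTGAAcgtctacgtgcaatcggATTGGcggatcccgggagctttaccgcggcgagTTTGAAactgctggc
Ube2c: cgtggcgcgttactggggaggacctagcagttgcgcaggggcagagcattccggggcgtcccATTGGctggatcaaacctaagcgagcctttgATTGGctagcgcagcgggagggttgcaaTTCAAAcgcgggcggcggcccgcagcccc
Cdc20: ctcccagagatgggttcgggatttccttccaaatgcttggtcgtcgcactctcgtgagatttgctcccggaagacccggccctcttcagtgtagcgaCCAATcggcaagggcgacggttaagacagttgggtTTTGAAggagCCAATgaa
Kif11: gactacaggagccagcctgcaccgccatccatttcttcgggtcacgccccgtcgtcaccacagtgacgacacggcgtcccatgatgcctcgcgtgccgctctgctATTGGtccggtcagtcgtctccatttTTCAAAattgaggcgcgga
Top2a: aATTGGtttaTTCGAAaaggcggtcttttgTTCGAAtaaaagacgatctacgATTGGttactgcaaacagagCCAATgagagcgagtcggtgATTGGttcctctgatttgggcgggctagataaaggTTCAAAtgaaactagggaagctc
Mki67: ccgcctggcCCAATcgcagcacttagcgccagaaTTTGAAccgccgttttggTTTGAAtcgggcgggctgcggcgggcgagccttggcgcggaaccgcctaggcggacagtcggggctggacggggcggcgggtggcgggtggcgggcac
Pttg1: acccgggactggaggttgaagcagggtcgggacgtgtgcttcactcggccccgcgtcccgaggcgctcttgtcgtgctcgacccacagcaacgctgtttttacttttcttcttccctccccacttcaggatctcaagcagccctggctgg
Cdk1 and Mki67 each held 2 CHR matches in this stretch and Top2a held 3, of which 2 were TTCGAA. Pttg1 held none of the letters searched. Among members with a promoter window, the 35 with a CHR form had a median log2 change of 1.92, with a range of 0.54 to 3.08. The 11 without one were Nuf2, Nek2, Ncaph, Mybl2, Cenpe, Mad2l1, Cenpu, Cenpt, Birc5, Cenpi and Pttg1, with a median change of 1.71 and a range of −0.32 to 2.55. The ranges overlap over most of their length, and 10 of these 11 genes rose.

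**Figure D2:**
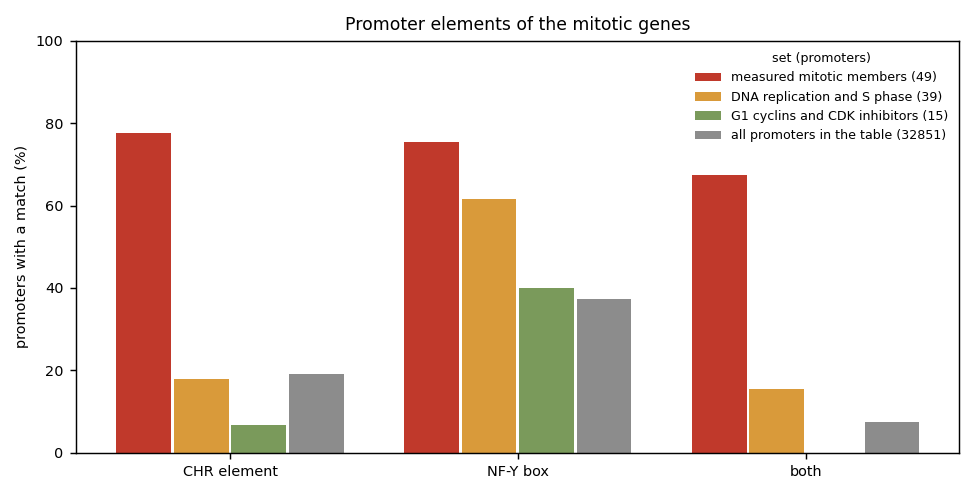
Share of promoters (percent, vertical axis from 0) that hold a CHR element, an NF-Y box or both within the RefSeq window, for the measured mitotic members, DNA replication and S phase genes, G1 cyclins and CDK inhibitors, and all promoters in the table. The members stand at 77.6%, 75.5% and 67.3%, and all promoters at 19.2%, 37.4% and 7.52%.

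The cyclins and the kinase they activate were among the members with the largest changes. Ccnb2, which encodes cyclin B2, had a lowest, median and highest log2 level of 10.66, 10.90 and 11.13 in sh Grb14 livers, against 7.73, 7.84 and 8.11 in sh scramble livers. Its groups lay far apart, and the change was 3.04 (SE 0.078), 8.22-fold higher (limma adjusted p = 1.2e-14). Ccna2, for cyclin A2, which acts from S phase into early mitosis, had 10.27, 10.50 and 10.57 in sh Grb14 livers, against 7.19, 7.37 and 7.77 in sh scramble livers, a rise of 3.04 (SE 0.089). Cdk1, the mitotic kinase itself, had 10.17, 10.35 and 10.65 in sh Grb14 livers, against 7.51, 7.81 and 8.02 in sh scramble livers, and rose by 2.61 (SE 0.10). The phosphatases that activate Cdk1 had smaller values. Cdc25b rose by 1.09 (SE 0.071) and Cdc25c by 1.02 (SE 0.08), each about 2-fold. All 5 genes of this group rose with no overlap between the groups, with a median change of 2.61.

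Both transcription factors that act on mitotic promoters rose. Foxm1, which activates late cell cycle genes, had log2 levels of 8.46, 8.56 and 8.85 (lowest, median, highest) in sh Grb14 livers, against 6.43, 6.59 and 6.85 in sh scramble livers. It rose by 1.999 (SE 0.083), 4-fold, with all sh Grb14 mice above all sh scramble mice (limma adjusted p = 2.51e-12). Mybl2, for the B-Myb subunit of the activating MuvB complex, had 7.78, 8.07 and 8.24 in sh Grb14 livers, against 7.16, 7.37 and 8.05 in sh scramble livers. It rose by 0.59 (SE 0.12) (limma adjusted p = 0.000451; two-sided exact permutation p = 0.00866), the only rise among the members with overlapping groups. The overlap came from sh scramble mouse 2, at 8.05 where the next highest sh scramble mouse had 7.45, and 3 of 6 sh Grb14 mice lay above that mouse.

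All 3 spindle kinases and the activator Tpx2 rose. Plk1, the Polo-like kinase that acts from entry to exit of mitosis, had 9.41, 9.93 and 10.42 in sh Grb14 livers, against 6.89, 7.16 and 7.31 in sh scramble livers, as lowest, median and highest log2 level. The rise was 2.82 (SE 0.12), 7.05-fold (limma adjusted p = 4.29e-12), with the widest spread among sh Grb14 mice of any member (SD 0.32). Tpx2, which localises and activates Aurora A on the spindle, rose by 2.49 (SE 0.11). Nek2, a kinase that parts the centrosomes, rose by 1.71 (SE 0.11), and Aurka, for Aurora A, rose by 1.61 (SE 0.088). None of these groups overlapped.

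The chromosomal passenger complex corrects wrong attachments at the centromere and later acts at the midzone. Its kinase Aurkb, for Aurora B, had log2 levels of 9.998, 10.13 and 10.25 in sh Grb14 livers, against 7.64, 7.76 and 7.96 in sh scramble livers, and rose by 2.35 (SE 0.067), 5.1-fold (limma adjusted p = 3.58e-14). The other subunits rose as well, by 1.58 (SE 0.093) for Cdca8 (borealin), 1.49 (SE 0.087) for Incenp, the scaffold, and 1.12 (SE 0.079) for Birc5 (survivin). Within each mouse the log2 ratio of Aurkb to a partner was higher in sh Grb14 livers, by 0.77 (SE 0.12) for Cdca8, 0.86 (SE 0.11) for Incenp and 1.23 (SE 0.089) for Birc5. These and the ratios below were compared by two-sided exact permutation over the 12 mice, adjusted over the 18 pairs within 3 complexes. The complexes were chosen after the values were seen, so these p-values describe the pattern and are no independent support for it. The adjusted exact p was 0.00433 for each of the Aurkb ratios. The ratio of Cdca8 to Incenp differed by 0.095 (SE 0.1) between the groups and did not pass (adjusted exact p = 0.355). The ratios of Cdca8 and of Incenp to Birc5 were higher in sh Grb14 livers, by 0.46 (SE 0.11) and 0.36 (SE 0.11). Both passed (adjusted exact p = 0.0142 for each). Probe sets differ in how they compress changes, so unequal changes of the signal need not be unequal changes of the RNA.

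All 5 spindle checkpoint genes rose. Bub1, a kinase that recruits the checkpoint to kinetochores, had log2 levels of 8.45, 8.70 and 8.93 in sh Grb14 livers, against 5.27, 5.64 and 6.09 in sh scramble livers, as lowest, median and highest. Its change of 3.08 (SE 0.13) was the largest of all members (limma adjusted p = 2.38e-12), and its sh scramble mean lay below the lower quartiles of the arrays, so the size may be understated. Bub1b, for BubR1, rose by 2.20 (SE 0.061), Mad2l1, for the Mad2 inhibitor of Cdc20, by 2.03 (SE 0.082), and Ttk, for the Mps1 kinase that starts the checkpoint, by 1.72 (SE 0.13). Bub3, the partner that carries Bub1 and BubR1 to kinetochores, had 10.08, 10.30 and 10.33 in sh Grb14 livers, against 9.59, 9.73 and 9.85 in sh scramble livers. Its rise of 0.54 (SE 0.052) was the smallest among members that rose, and its groups still did not overlap (limma adjusted p = 1.09e-07).

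Genes of anaphase and of protein breakdown at mitotic exit included the only fall. Ube2c, the ubiquitin-conjugating enzyme of the anaphase-promoting complex, had 9.83, 10.001 and 10.18 in sh Grb14 livers, against 7.52, 7.66 and 8.06 in sh scramble livers, and rose by 2.28 (SE 0.091), 4.86-fold (limma adjusted p = 1.58e-12). Cdc20, which activates that complex, rose by 1.67 (SE 0.088), and Espl1, for separase, the protease that cuts cohesin, rose by 0.57 (SE 0.059). Pttg1 encodes securin, which keeps separase inactive until anaphase. Its log2 levels were 9.29, 9.36 and 9.42 in sh Grb14 livers, against 9.64, 9.66 and 9.69 in sh scramble livers. All 6 sh Grb14 mice lay below all 6 sh scramble mice, and Pttg1 fell by 0.32 (SE 0.037), to 80.3% of the level in sh scramble livers (limma adjusted p = 1.13e-06). It kept this call under all 20 alternative settings, with changes of −0.46 to −0.31. Falls were common in these livers, with 39.5% of all genes called lower and 20.8% lower without overlap.

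**Figure D3:**
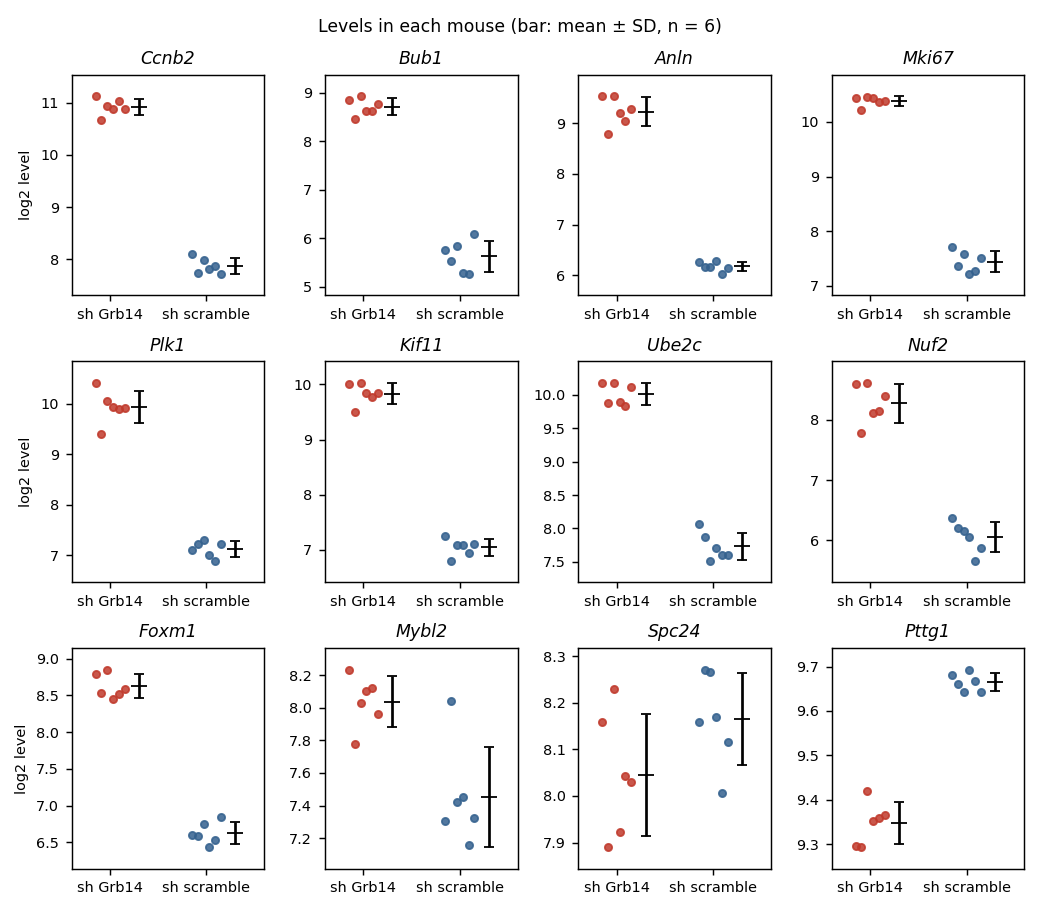
Log2 level of 12 mitotic genes in each mouse, sh Grb14 in red and sh scramble in blue, with the mean and SD of 6 mice as a bar. Vertical scales differ between panels and do not start at 0. The first 9 genes, from Ccnb2 to Foxm1, show no overlap, Mybl2 overlaps through 1 sh scramble mouse at 8.05, Spc24 overlaps broadly, and Pttg1 is lower in all sh Grb14 mice.

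All 10 kinesins rose with no overlap, by between 1.50 and 2.78 on the log2 scale. Kif11, the motor that pushes spindle poles apart, had 9.49, 9.84 and 10.03 in sh Grb14 livers, against 6.81, 7.08 and 7.25 in sh scramble livers, as lowest, median and highest log2 level. It rose 6.88-fold, with a change of 2.78 (SE 0.088) (limma adjusted p = 1.06e-13). The motors of the central spindle were close behind, with rises of 2.62 (SE 0.072) for Kif23, a subunit of centralspindlin, and 2.44 (SE 0.10) for Kif20a. Cenpe, a kinetochore motor that brings chromosomes to the equator, rose by 2.55 (SE 0.10). The chromosome-bound motors Kif4 and Kif22 rose by 2.08 (SE 0.13) and 1.96 (SE 0.088). The microtubule depolymerases Kif2c and Kif18b rose by 1.92 (SE 0.073) and 1.69 (SE 0.095), Kif15, which assists Kif11, by 1.64 (SE 0.09), and Kif20b, a motor of late cytokinesis, by 1.50 (SE 0.094).

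Cytokinesis genes had the highest median change of the role groups, 2.77 over 4 genes. Anln, for anillin, which organises the contractile ring, had 8.78, 9.23 and 9.54 in sh Grb14 livers, against 6.03, 6.16 and 6.29 in sh scramble livers. The rise of 3.05 (SE 0.11) was 8.3-fold (limma adjusted p = 3.66e-13), and the groups did not overlap. Prc1, which bundles midzone microtubules, rose by 2.92 (SE 0.13). Ect2, the exchange factor that turns on RhoA at the equator, rose by 2.61 (SE 0.12), and Racgap1, the centralspindlin partner of Kif23, by 2.06 (SE 0.059).

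All 6 centromere genes rose, with a median change of 1.22, beside 2.02 for the kinesins. Cenpi, a subunit of the constitutive centromere network, had 7.12, 7.44 and 7.82 in sh Grb14 livers, against 5.35, 5.53 and 5.82 in sh scramble livers. It rose by 1.88 (SE 0.12) (limma adjusted p = 5.19e-10). Cenpn, which binds the centromeric nucleosome, rose by 1.55 (SE 0.081), and Cenpa, the histone H3 variant of that nucleosome, by 1.32 (SE 0.068). The network subunits Cenpu, Cenpt and Cenpm rose by 1.11 (SE 0.09), 0.97 (SE 0.064) and 0.93 (SE 0.052). The sh scramble means of Cenpi and Cenpu, and of Ttk, Kif20b and Bub1 in other groups, lay below the lower quartiles of the arrays, where changes can be understated.

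The outer kinetochore held the member that did not pass. The NDC80 complex, which grips the microtubule, has 4 subunits. Nuf2 had 7.78, 8.28 and 8.62 in sh Grb14 livers, against 5.66, 6.10 and 6.37 in sh scramble livers, and rose by 2.23 (SE 0.14) (limma adjusted p = 4.09e-10). Spc25 rose by 1.35 (SE 0.10) and Ndc80 by 0.80 (SE 0.076). Spc24 had 7.89, 8.04 and 8.23 in sh Grb14 livers, against 8.01, 8.16 and 8.27 in sh scramble livers. Its groups overlapped, and its change of −0.12 (SE 0.067) did not pass (limma adjusted p = 0.124; 95% confidence interval −0.26 to 0.022). Spc24 was called lower under 2 other scalings, with −0.24 after quantile normalization (adjusted p = 0.00248) and −0.27 with arrays centred on the median of the genes tested (adjusted p = 0.00107). Its adjusted p over all alternatives lay between 0.00107 and 0.26.

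Ratios between the probe signals of these subunits differed between the groups. The within-mouse log2 ratio of Nuf2 to Spc24 was higher in sh Grb14 livers by 2.35 (SE 0.12), that of Spc25 to Spc24 by 1.47 (SE 0.11) and that of Ndc80 to Spc24 by 0.92 (SE 0.099) (adjusted exact p = 0.00433 for each). Such ratios within an array do not depend on centring. All 6 ratios within the complex, which was chosen after the values were seen, passed. The smallest difference was 0.55 (SE 0.17) between Spc25 and Ndc80 (adjusted exact p = 0.015). Cenpf, a large protein of the outer kinetochore, rose by 1.39 (SE 0.089).

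Genes of chromosome structure rose together. Mki67, for the Ki-67 protein that coats mitotic chromosomes and marks dividing cells, had 10.22, 10.42 and 10.46 in sh Grb14 livers, against 7.22, 7.43 and 7.71 in sh scramble livers. Its groups did not overlap, and the change was 2.95 (SE 0.077) (limma adjusted p = 1.43e-14). Top2a, the topoisomerase that untangles sister chromatids, rose by 2.88 (SE 0.11), 7.39-fold. With the mean of its probe sets, of which the second lies far below the lower quartiles of the arrays, the rise was 1.56. The condensin subunits, which compact chromosomes, rose by 2.27 (SE 0.11) for Ncapg, 2.11 (SE 0.076) for Ncaph, 1.89 (SE 0.11) for Smc2 and 1.78 (SE 0.098) for Smc4. Differences of change between condensin subunits lay between 0.11 (SE 0.084) and 0.49 (SE 0.09). In this complex, likewise chosen after the values were seen, Ncapg against Smc4 and Ncaph against Smc4 passed (adjusted exact p = 0.00433 and 0.015). Ncapg against Ncaph and Smc2 against Smc4 did not pass (adjusted exact p = 0.207 and 0.236). Ncapg against Smc2 passed with all mice (adjusted exact p = 0.039), and not in 10 of 12 settings that left out 1 mouse (0.0519 to 0.0779). Those settings were without sh scramble 2 to 6 or sh Grb14 1, 2, 3, 5 or 6. In them the difference was 0.33 to 0.40, beside 0.38 with all mice. With fewer mice the smallest p that the exact test can give is larger, so a lost call need not mean a smaller difference. Ncaph against Smc2 did not pass (adjusted exact p = 0.0623) and did without sh scramble 1 (0.0195) or sh Grb14 4 (0.0278).

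The mice of a group differed in the level of the whole set. The mean over the 55 genes of each mouse's log2 level minus the sh scramble mean had a lowest, median and highest value of 1.63, 1.82 and 2.04 in sh Grb14 livers, against −0.11, 0.026 and 0.067 in sh scramble livers. The sh Grb14 mice 1 and 3 were at the top, with 2.04 and 1.99, and between them held the highest sh Grb14 level for 50 of the 55 members. Mouse 2 was at the bottom, with 1.63, and held the lowest for 36. Mouse 2 also had the highest remaining Grb14 level of the 6, 8.44, while mouse 4, with the lowest Grb14 level of 8.02, had a mitotic mean of 1.77. Marker levels differed among these mice as well. Mouse 2 had the lowest mean level of stellate cell markers, 9.99, and of monocyte and macrophage markers, 10.12, and the highest of hepatocyte markers, 12.91, among the 6. Mouse 1 had the lowest mean level of T cell markers, 8.42, and of neutrophil markers, 7.08. Mouse 3 had the highest mean level of natural killer and cytotoxic cell markers, 8.40. Its mean was 8.68 for T cell, 10.40 for monocyte and macrophage and 7.23 for neutrophil markers. The part of these differences in the mitotic levels was not tested. In each sh Grb14 mouse 52 or 53 members lay above every sh scramble mouse. The SD over mice was larger in sh Grb14 livers than in sh scramble livers for 40 of the 55 members, with a median of 0.18 and 0.16.

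**Figure D4:**
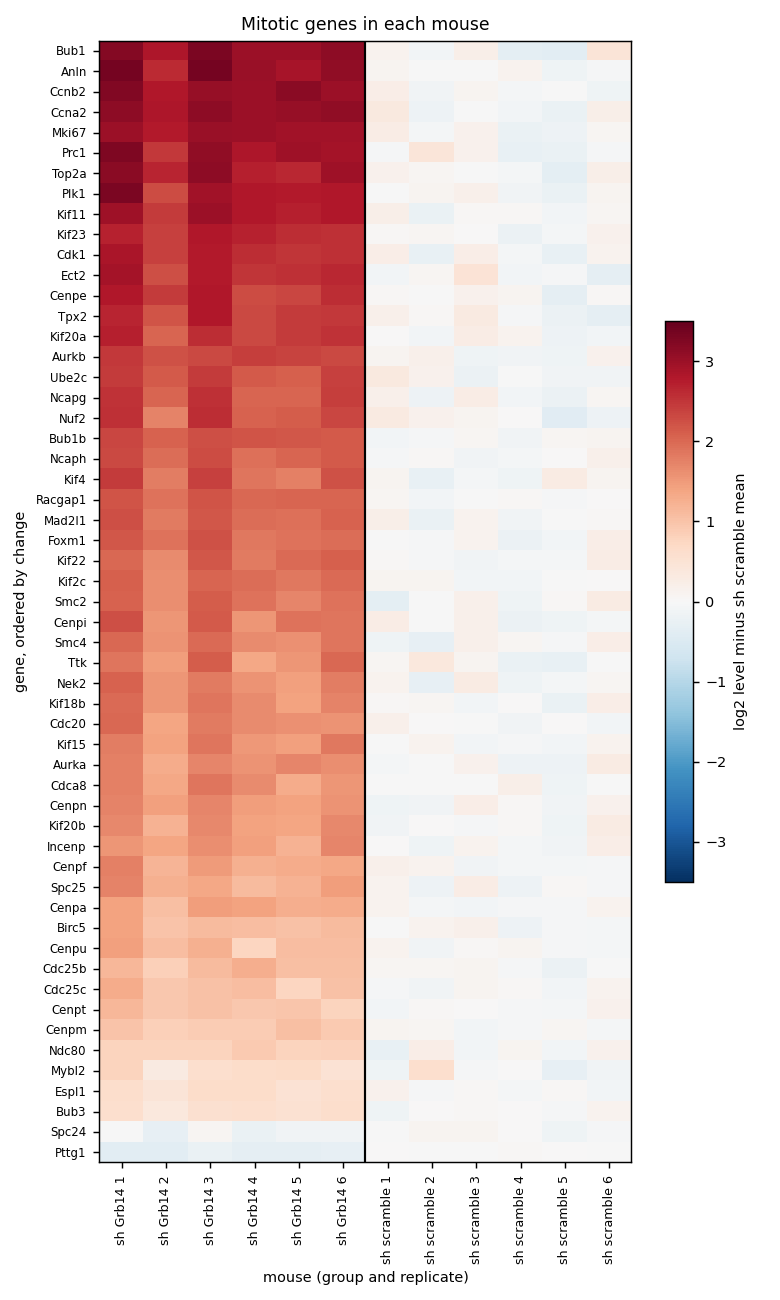
Log2 level of each of the 55 mitotic genes (rows, ordered by change) minus its sh scramble mean, in the 6 sh Grb14 and 6 sh scramble mice (columns). Red is higher and blue lower. The column of sh Grb14 mouse 2 is paler than those of mice 1 and 3 for most rows, with mean values of 1.63, 2.04 and 1.99.

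Other mitotic genes, from lists of genes outside the 56, rose too. Of 87 measured, 71 were called higher, 3 lower and 13 in neither direction, and the median change was 0.64. The shares over all genes, to set beside this and the lists below, were 25.8% higher and 39.5% lower. With arrays centred on the median of the genes tested, 62 rose and 11 fell. All 15 other kinesin and spindle genes rose, led by Hmmr, for a spindle assembly factor, with 3.13 (SE 0.14), the spindle protein gene Nusap1 with 2.79 (SE 0.093), and Ckap2, for a spindle pole protein, with 2.73 (SE 0.12). Among other regulators 14 of 15 rose, led by Mastl, the Greatwall kinase, with 2.39 (SE 0.09), then Plk4, the kinase of centriole duplication, with 1.88 (SE 0.12), and Gtse1 with 1.78 (SE 0.089). Among other centromere and kinetochore genes 23 of 28 rose and 5 did not pass. There Sgo2a, a shugoshin that guards centromeric cohesion, rose by 2.77 (SE 0.12), Knl1, the kinetochore platform of Bub1, by 2.46 (SE 0.14), and Ska3, of the complex that tracks microtubule ends, by 2.31 (SE 0.11). The sh scramble means of Hmmr and Ska3 lay below the lower quartiles of the arrays, so their changes can be understated.

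The general machinery of cohesion and of the anaphase-promoting complex, which is also active outside mitosis, had lower medians. Of 14 other condensin and cohesin genes, 8 were higher, 1 was lower and 5 missed the threshold, and the median change was 0.22. The rises were led by the condensin II subunit Ncapg2 with 2.25 (SE 0.11), Cdca5, for the cohesin protector sororin, with 1.50 (SE 0.069), and the condensin I subunit Ncapd2 with 1.43 (SE 0.073). Wapl, which releases cohesin from DNA, fell by 0.31 (SE 0.044). Of 15 genes of the anaphase-promoting complex 11 rose and 2 fell, with a median of 0.27. Fbxo5, for its inhibitor Emi1, rose by 1.22 (SE 0.094), the subunit Anapc4 by 0.69 (SE 0.065) and the conjugating enzyme gene Ube2s by 0.67 (SE 0.059). The subunits Anapc13 and Cdc26 fell by 0.65 (SE 0.046) and 0.45 (SE 0.047).

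Genes that act before mitosis are given for comparison, with no test between lists. Over all genes 25.8% were called higher and 39.5% lower. Of 40 measured genes of DNA replication and S phase 37 were higher, 1 was lower and 2 missed the threshold, and the median change was 1.06. The helicase subunit Mcm6 rose by 2.49 (SE 0.093), the chromatin assembly factor Chaf1b by 2.01 (SE 0.066), and the DNA ligase Lig1 by 1.89 (SE 0.069), while Mcm10, a replication initiation factor, fell by 0.56 (SE 0.11). Of 14 G1 cyclin and CDK inhibitor genes 11 rose and 1 fell, with a median of 0.46. The E cyclin genes Ccne1 and Ccne2, which drive entry into S phase, rose by 2.95 (SE 0.088) and 2.40 (SE 0.097), and Ccnd1, for cyclin D1, by 1.37 (SE 0.11). Cdkn2a, a CDK inhibitor gene, was the only gene of this list that fell, by 0.29 (SE 0.065). The other CDK inhibitor genes measured rose, by 0.18 to 0.93, or did not pass. Of 18 DREAM and E2F regulators 12 rose and 4 fell. The pocket protein gene Rbl1 (p107) rose by 2.26 (SE 0.068), and Rbl2 (p130), its relative of resting cells, fell by 0.45 (SE 0.045). The activator E2f1 rose by 0.91 (SE 0.062) and the repressor E2f8 by 0.92 (SE 0.17). The histone-binding DREAM subunit Rbbp4 fell by 0.22 (SE 0.033), and E2f5, for a repressor E2F, by 0.22 (SE 0.065) with overlapping groups. With arrays centred on the median of the genes tested these falls were larger, with changes of −0.37 for Rbbp4, −0.37 for E2f5 and −0.43 for Cdkn2a, and E2f5 had −0.33 after quantile normalization. The plot of cell cycle lists shows the members beside these lists.

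**Figure D5:**
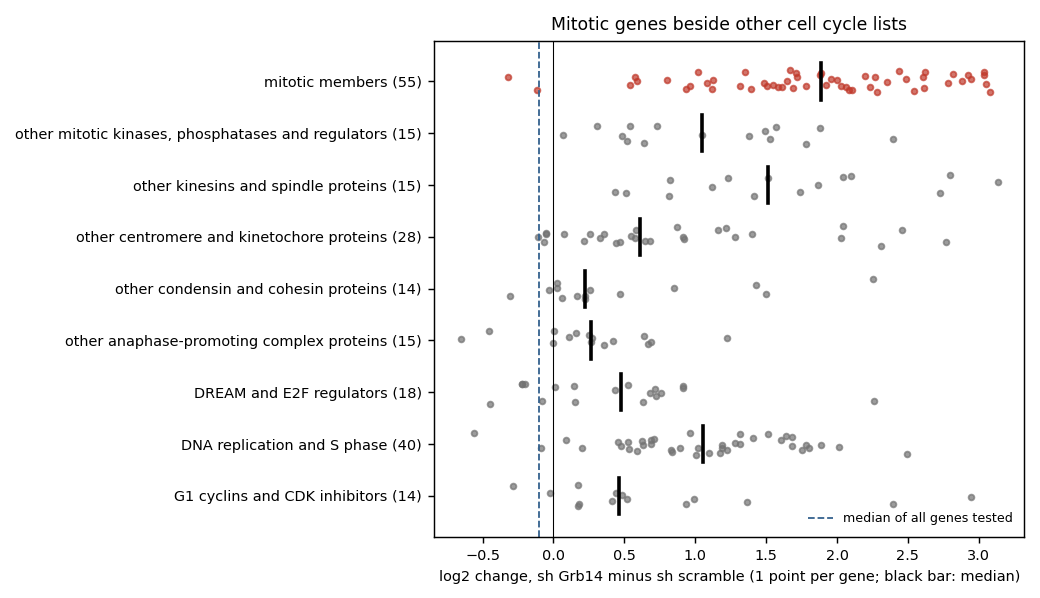
Log2 change (sh Grb14 minus sh scramble) of the 55 mitotic members in red and of 8 other cell cycle lists in grey, 1 point per gene. Numbers after the names count measured genes, black bars are medians, and the dashed line is the median of all genes tested. The medians run from 1.89 for the members to 0.22 for other condensin and cohesin proteins.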

How the data were processed

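The authors deposited log2 expression values, 1 per probe set and array, in a table of 35556 probe sets and 12 arrays. RMA and Partek are named in the submitters' processing notes, without version, role or order. Mice are numbered within a group in the order of their records, and the numbers pair nothing. The probe set definitions, array settings and scan batches are not given in the sources used here. A batch therefore could not be tested, and one that followed the groups cannot be told apart from them. Values near the bottom or top of the scale can be compressed. Of the probe sets, 21789 had 1 gene symbol, 1621 several and 12146 none, and those with 1 were used. Gene symbols matched RefSeq (GRCm38.p6) by Entrez identifier for 21698 of them.

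All 19938 genes were fitted with limma 3.58.1 in R 4.3.3 (lmFit, eBayes with an intensity trend, no covariate, no filter), with all 12 arrays. Adjusted limma p-values are Benjamini-Hochberg over all genes, and the SE of a gene's change is that of the fit. For ratios within complexes the SE comes from the variances of the ratio in the 2 groups. Their exact p-values are Benjamini-Hochberg adjusted over the 18 pairs. The labels do not say whether animals were caged or processed together, and the number of arrays limits the precision. The mitotic genes and the gene lists were chosen with earlier results of these data known, and so were the genes named. In each role group the member with the largest change, and each member that fell or did not pass, is given with its levels. Other lists are named by up to 3 of their largest called rises and falls. Alternatives were other scalings, variance priors, array weights, a filter on dim genes, the mean of all probe sets, and leaving out each mouse. Promoters were taken from a RefSeq table.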

Additional observations from a re-analysis of the deposited data

Results flagged for a closer look

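In 8 cases the highest or lowest of 6 mice stood apart from the rest of its group by more than Dixon's critical value for 6 values, taken as the gap over the group's whole range. Chance alone gives this in about 1 in 20 groups, and it was seen in 4.55% of the 176 groups examined. Among the members, Mybl2 had 8.05 in sh scramble mouse 2, above the next value of 7.45. Birc5 had 8.37 in sh Grb14 mouse 1, above 8.07. Bub3 had 10.08 in sh Grb14 mouse 2, below 10.26. Cenpe had 5.41 in sh scramble mouse 5, below 5.73. Ndc80 had 6.99 in sh Grb14 mouse 4, above 6.89. Mki67 had 10.22 in sh Grb14 mouse 2, below 10.37. Among the other genes named, Gtse1 had 9.11 in sh Grb14 mouse 1, above 8.71, and Plk4 had 6.41 in sh scramble mouse 2, below 6.73. Leaving out any 1 mouse changed no call of these 8 genes.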

How the results depend on the processing

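Of 20 alternatives, 12 left out 1 mouse each and 8 changed the scaling, the variance prior, the weights, the filter or the probe set. The alternative that centred arrays on the median of the genes tested, and all tests of ratios within complexes, were chosen after seeing the data. For 54 of the 55 members the direction and the call were the same under every alternative that included them, the exception being Spc24, and the 32 other genes named also kept theirs. Leaving out 1 mouse gave 53 rises and 1 fall among the members each time, a median change of 1.84 to 1.94, 69 to 72 rises and 3 falls among the other mitotic genes, and a Grb14 change of −1.95 to −1.86. Quantile normalization called 2 members and 6 other mitotic genes lower. Centring on the median of the genes tested called 2 members and 11 other mitotic genes lower and gave a member median of 1.74. That centring moved the median of all genes to −0.25, where 19.4% of genes rose and 64.9% fell. Relative to all genes the member median was 1.99, which centring cannot move, and 1.96 after quantile normalization. Leaving out genes with a mean below 7.11 kept 45 members, of which 43 rose, and 61 other mitotic genes, of which 45 rose, because fewer genes were tested. The 18 ratios within complexes were tested again only with each mouse left out and with the mean of all probe sets. That mean could not change them, because no gene of these complexes had a second probe set. Of the 18, 16 kept their call, all but the 2 condensin ratios described. The ratios were not tested after quantile normalization. No paired analysis was possible because the labels give the groups no shared replicate numbers. Background correction and scan batch could not be varied on the deposited values. No detection call exists, so levels near the lower quartiles carry the most doubt about size.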

Other observations

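Top2a had a second probe set, at mean log2 levels of 3.61 in sh Grb14 livers and 3.37 in sh scramble livers, a difference of 0.23. Both levels lie far below the lower quartiles of the arrays.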
